A study of Mus musculus with 11 samples.

Results

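The 9 genes described here encode enzymes of triglyceride metabolism: Gpam, Gpat4, Agpat2, Agpat3, Lpin1, Lpin2, Dgat1 and Mogat1, which build triglyceride, and Mgll, which takes apart monoglyceride. They were chosen by name, with earlier results of these data known. All 9 were found among the 54232 genes counted in isolated mouse hepatocytes. The glycerol phosphate pathway joins fatty acyl-CoA to glycerol 3-phosphate on the endoplasmic reticulum and the outer mitochondrial membrane. Glycerol 3-phosphate acyltransferases (Gpam in mitochondria, Gpat4 in the endoplasmic reticulum) add the first acyl chain, acylglycerophosphate acyltransferases (Agpat2, Agpat3) make phosphatidate, lipins (Lpin1, Lpin2) remove its phosphate to give diacylglycerol, and a diacylglycerol acyltransferase (Dgat1, or the unrelated enzyme Dgat2) adds the last chain. Mogat1 makes diacylglycerol from monoacylglycerol instead, and the monoglyceride lipase Mgll completes the breakdown of triglyceride to glycerol and fatty acid.

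Hepatocytes came from adult male C57BL/6 mice. Xbp1 LKO mice lack the transcription factor XBP1 in the liver through a Cre recombinase driven by the albumin promoter, and Xbp1 fl/fl mice, with the floxed allele, were the controls. Mice were fed chow with water, or an HFS (high fat sugar) diet, the AIN-76 Western Diet with fructose and glucose in the drinking water, for up to 6 weeks. In all, 11 libraries were analysed: 3 of chow-fed Xbp1 fl/fl, 2 of chow-fed Xbp1 LKO, 3 of HFS-fed Xbp1 fl/fl and 3 of HFS-fed Xbp1 LKO mice. A chow library held hepatocytes of 1 mouse and an HFS library those of 2 pooled mice, so pooling and diet cannot be told apart. The labels do not say which libraries share a litter or an isolation day, and p-values measure the spread between these libraries.

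Levels below are in CPM, the count of a gene as a share of its library's total, after TMM scaling, which aligns libraries on the bulk of their genes. Total counts were 19191032 to 23888401 per library, and Xbp1 itself was lower in every Xbp1 LKO library. Xbp1 was at 194, 200.3 and 221 CPM in chow-fed Xbp1 fl/fl and at 95.7 and 128 CPM in chow-fed Xbp1 LKO libraries. On the HFS diet it was at 301, 295 and 242 CPM in Xbp1 fl/fl and at 117, 97.3 and 135 CPM in Xbp1 LKO libraries. The count covers the whole gene, so reads from exons that are not deleted remain in it. The summed level of 11 hepatocyte markers was 126433 to 177272 CPM in Xbp1 fl/fl and 44049 to 92841 CPM in Xbp1 LKO libraries, with none at 0. Alb, which is among these markers, alone held 5.88% to 10.9% of all counts in Xbp1 fl/fl libraries. In Xbp1 LKO libraries it held 1.67% to 5.40%, so the sum depends strongly on this transcript. The summed levels of 12 macrophage, 10 endothelial and 10 stellate cell markers were at most 105, 138 and 75.6 CPM in any library. In such bulk samples, fewer cells of a type and less RNA of its markers per cell cannot be told apart.

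The sequences shown first are those that set the 2 diacylglycerol acyltransferases beside Xbp1. The endoribonuclease IRE1, the sensor upstream of XBP1, cuts Xbp1 mRNA in stem-loops, and the motif CTGCAG lies in one loop. Each line gives 30 bases of the coding part of the longest coding transcript (GENCODE M21 on GRCm38), with CTGCAG in capitals. The windows of Xbp1 (chr11:5524290-5524319, plus strand), Dgat1 (chr15:76502979-76503008, minus strand) and Dgat2 (chr7:99169729-99169758, minus strand, and a second window that spans an intron) follow.
Xbp1: ctatgtgcacctCTGCAGcaggtgcaggcc
Dgat1: gtggcagagcttCTGCAGtttggagaccgc
Dgat2, first: gtggaaaaacagCTGCAGgtcatctcagta
Dgat2, second: gctaggagtggcCTGCAGtgtcatcctcat

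CTGCAG was common: 79.8% of 21901 genes held it in the longest coding transcript, at a median of 0.71 matches per kilobase. Dgat1 held 1 match (0.53 per kilobase) and Dgat2 held 4 (1.77 per kilobase), 2 of them in the coding sequence. Among the other members, Agpat2 held 0 matches and Mogat1 held 1, while Lpin2 held 5, Lpin1, Agpat3 and Mgll 6 each, and Gpam and Gpat4 7 each. Per kilobase this was 1.503 for Mgll, 1.269 for Gpat4, 1.134 for Gpam, 1.075 for Lpin1 and 1.003 for Agpat3. It was 0.887 for Lpin2 and 0.814 for Mogat1. Xbp1 itself held 1 match (0.47 per kilobase), so the density did not set Xbp1 apart. A match of 6 letters is a description of the sequence, not a cleavage site.

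Promoter windows are shown for Gpam, which DESeq2 called on chow, for Mgll, whose diets did not overlap in either genotype, and for Lpin1, which some settings called on the HFS diet. Each window holds 250 bases before and 50 after a RefSeq start on GRCm38.p6, written along the gene's strand. Capitals mark matches on either strand to CCACG (the part of the ER stress response element bound by XBP1 and ATF6), the E-box CACGTG (bound by bHLH factors), which can overlap CCACG, or AGGTCA (a nuclear receptor half-site). The windows are chr19:55099428-55099727 for one of 2 Gpam starts and chr12:16610917-16611216 for Lpin1, both on the minus strand. That of Mgll is chr6:88724162-88724461 on the plus strand, for the first of 2 starts. The window of the other Gpam start, chr19:55127189-55127488, held none of these motifs. That of the other Mgll start held 2 matches to CCACG.
Gpam: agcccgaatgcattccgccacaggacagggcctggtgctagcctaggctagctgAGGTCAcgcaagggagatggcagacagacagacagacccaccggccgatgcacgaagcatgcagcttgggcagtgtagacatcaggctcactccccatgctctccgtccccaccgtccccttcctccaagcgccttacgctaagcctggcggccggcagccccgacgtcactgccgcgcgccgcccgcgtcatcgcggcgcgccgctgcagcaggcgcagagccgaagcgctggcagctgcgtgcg
Lpin1: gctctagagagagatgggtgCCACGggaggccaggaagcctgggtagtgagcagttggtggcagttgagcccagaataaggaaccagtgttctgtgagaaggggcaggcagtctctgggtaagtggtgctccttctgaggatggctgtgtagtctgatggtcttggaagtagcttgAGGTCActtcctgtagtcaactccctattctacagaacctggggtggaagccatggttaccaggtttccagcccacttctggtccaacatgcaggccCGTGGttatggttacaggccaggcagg
Mgll: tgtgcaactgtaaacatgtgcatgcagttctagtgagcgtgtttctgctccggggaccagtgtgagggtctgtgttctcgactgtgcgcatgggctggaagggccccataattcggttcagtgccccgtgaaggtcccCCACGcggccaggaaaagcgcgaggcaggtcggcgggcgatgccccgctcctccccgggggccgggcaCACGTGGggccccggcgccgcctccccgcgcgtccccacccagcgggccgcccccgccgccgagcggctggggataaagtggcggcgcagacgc

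RefSeq windows were found for 7 of the 9 members, 11 windows in all; Gpat4 and Dgat1 had no entry. CCACG was in 8 of the 11 windows, in 5 members, against 32.8% of all 32851 windows in the table. CACGTG was in 2 of the 11 windows (Lpin2 and Mgll) against 7.15%, and AGGTCA in 2 (Gpam and Lpin1) against 16.3%. Neither TGACGTGG (the unfolded protein response element) nor TCACNCCAC (a sterol response element), which 0.676% and 1.24% of all windows hold, was in a member's window. Windows of one gene can overlap, and these counts are descriptions.

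None of the 9 members passed an adjusted p of 0.05 in any of the 5 comparisons (edgeR quasi-likelihood test, Benjamini-Hochberg over 13303 genes). Dgat2, an enzyme of the last step that is not among the 9, passed between genotypes on both diets and is described below. Over all genes, 4.75% were called between genotypes on chow and 4.08% on the HFS diet, 0.428% between diets in Xbp1 fl/fl and 0.0601% in Xbp1 LKO hepatocytes, and 0.0% for the interaction of genotype and diet. At an unadjusted p under 0.05, the members counted 1, 2, 3, 1 and 1 in that order, against 19.3%, 17.5%, 8.95%, 12.7% and 6.13% of all genes. DESeq2 called 1 member, Gpam on chow, where it called 1115 of 26016 genes, and 0 members in each of the other 4 comparisons. The median log2 difference of the 9 members was -0.07 for genotype on chow, -0.21 for genotype on the HFS diet, 0.25 for diet in Xbp1 fl/fl and 0.06 for diet in Xbp1 LKO, while the medians of all genes lay between -0.01 and 0.01. With library totals, which raise the median gene by 0.33 on chow and 0.27 on the HFS diet, the members' genotype medians turned sign, to 0.26 on chow (7 of 9 above 0, against 4) and 0.04 on the HFS diet (6 above 0, against 3). The 2 genotype comparisons and 2 diet comparisons share libraries and are not independent of each other.

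**Figure D1:**
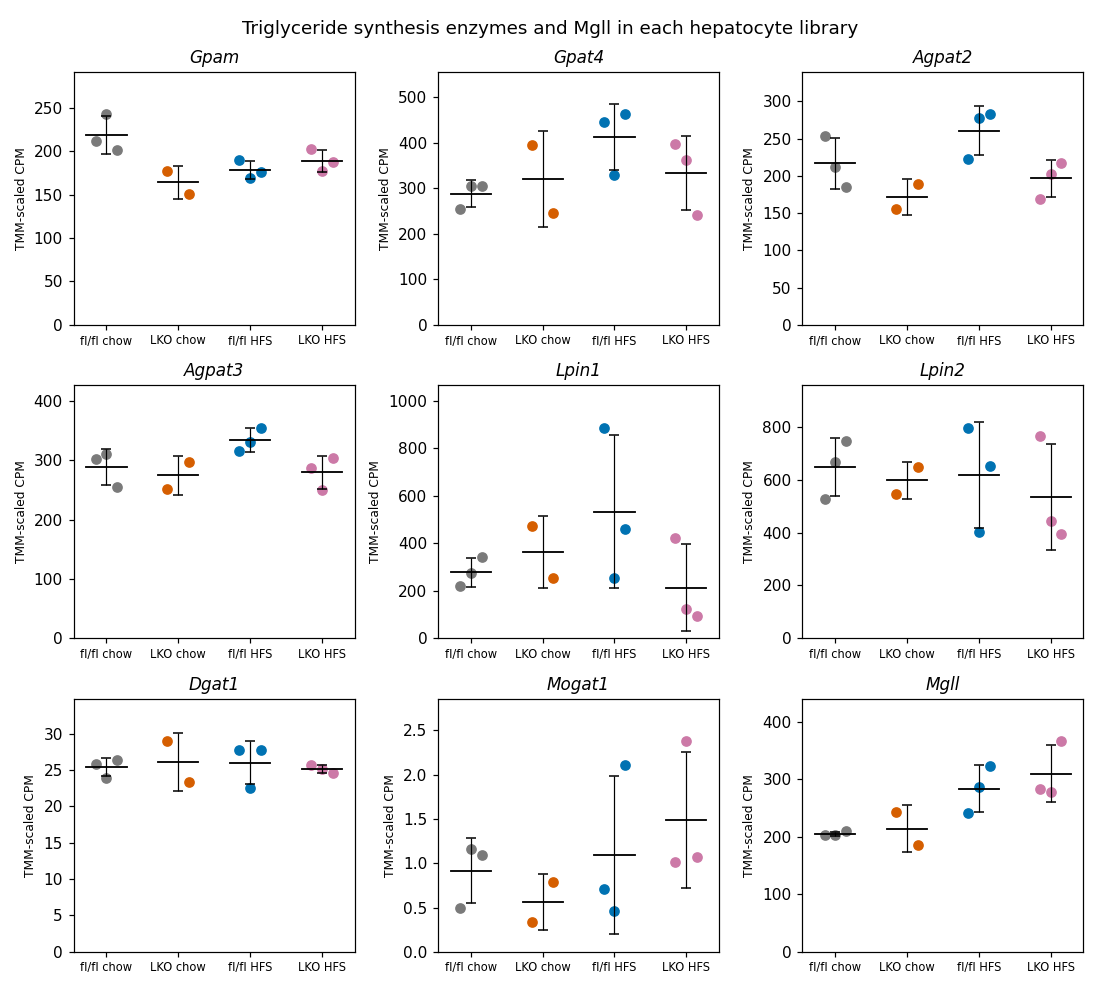
Each panel plots 1 gene, with TMM-scaled CPM from 0 on the y axis and the 4 groups on the x axis; points are libraries, horizontal lines group means and bars 1 SD (2 libraries for chow-fed Xbp1 LKO, 3 for each other group). Mgll points of HFS-fed groups lie above those of chow-fed groups of the same genotype, Dgat1 points stay between 22.6 and 29.0 CPM, and Lpin1 points spread from 92.2 to 888 CPM.

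At the first step, Gpam lay lower in chow-fed Xbp1 LKO than in chow-fed Xbp1 fl/fl hepatocytes, a difference that DESeq2 called and edgeR did not. Its level on chow was 212, 243 and 201 CPM in Xbp1 fl/fl and 178 and 151 CPM in Xbp1 LKO. Under HFS feeding Gpam was at 190.0, 169 and 176 CPM in Xbp1 fl/fl and at 202, 178 and 188 CPM in Xbp1 LKO libraries. The genotypes did not overlap on chow and overlapped on the HFS diet, and the 2 diets did not overlap in Xbp1 fl/fl. The log2 difference between genotypes on chow was -0.41 (SE 0.13, 95% interval -0.70 to -0.12), with an adjusted p of 0.107 by edgeR and 0.0307 by DESeq2, for a ratio of 0.752. With libraries scaled by their totals, which raises the median gene by 0.33 (log2) in this comparison, the value was -0.09. For HFS-fed mice the genotype difference was 0.09 (95% interval -0.17 to 0.34). The interaction was 0.50 (95% interval 0.11 to 0.88) with an adjusted p of 0.726, so a dependence on diet was not called. Gpam fell by 0.29 on the log2 scale from chow to the HFS diet in Xbp1 fl/fl (SE 0.12, adjusted p 0.480), a value that did not pass the test.

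Gpat4, the enzyme of the same step in the endoplasmic reticulum, was at 253, 305 and 304 CPM in chow-fed Xbp1 fl/fl and at 446, 329 and 463 CPM in HFS-fed Xbp1 fl/fl libraries. These groups did not overlap, and the log2 difference was 0.52 (95% interval 0.03 to 1.01, adjusted p 0.527 by edgeR). In Xbp1 LKO libraries Gpat4 was at 395 and 246 CPM on chow and at 397, 363 and 242 CPM on the HFS diet. There the groups overlapped, and the libraries of 1 group differed by up to 1.64 times.

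At the second step, both acylglycerophosphate acyltransferases were lower in HFS-fed Xbp1 LKO than in HFS-fed Xbp1 fl/fl libraries without overlap, and neither passed the test. Agpat2, whose loss causes lipodystrophy in humans and mice, was at 222, 277 and 283 CPM in HFS-fed Xbp1 fl/fl libraries and at 169, 203 and 217 CPM in HFS-fed Xbp1 LKO libraries. The log2 difference was -0.41 (SE 0.16, 95% interval -0.75 to -0.06, adjusted p 0.197 by edgeR). On chow, Agpat2 was at 253, 212 and 185 CPM in Xbp1 fl/fl and at 155 and 189 CPM in Xbp1 LKO libraries, where the ranges overlapped and the difference was -0.33 (95% interval -0.72 to 0.06). With library totals the differences of Agpat2 were -0.14 on the HFS diet and 0.0012 on chow, where the sign turned. Agpat3 was at 316, 331 and 355 CPM in HFS-fed Xbp1 fl/fl and at 286, 250 and 304 CPM in HFS-fed Xbp1 LKO libraries. Its log2 difference was -0.25 (SE 0.13, 95% interval -0.54 to 0.03, adjusted p 0.347 by edgeR), and 0.0045 with libraries scaled by their totals, which raises the median gene by 0.27 in this comparison, so its direction depended on the scaling. In chow-fed libraries Agpat3 was at 301, 311 and 255 CPM in Xbp1 fl/fl and at 252 and 297 CPM in Xbp1 LKO. The HFS-fed Xbp1 fl/fl libraries lay above the chow-fed ones, by 0.21 (95% interval -0.07 to 0.49, adjusted p 0.712).

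In the 2 genotype comparisons, 1 member on chow (Gpam) and 2 on the HFS diet (Agpat2, Agpat3) had groups that did not overlap, all lower in Xbp1 LKO, out of 9. This was below the share over all genes, 31.3% on chow and 26.1% on the HFS diet. The hepatocyte marker sum and the share of Alb given above were also lower in Xbp1 LKO libraries, and their part in these differences was not tested.

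At the third step, the lipins varied widely between HFS-fed libraries of the same group, by up to 4.59 times for Lpin1 and 1.98 times for Lpin2, against at most 1.64 times for the other members apart from Mogat1. Lpin1, which also acts as a coactivator of fatty acid oxidation genes and rises on fasting, was at 221, 273 and 342 CPM in chow-fed Xbp1 fl/fl and at 472 and 256 CPM in chow-fed Xbp1 LKO libraries. With HFS feeding it was at 888, 254 and 460 CPM in Xbp1 fl/fl libraries and at 423, 122 and 92.2 CPM in Xbp1 LKO libraries. The highest library of HFS-fed Xbp1 LKO lay inside the range of HFS-fed Xbp1 fl/fl, and the other 2 lay below every other library of the series. The log2 difference between genotypes on the HFS diet was -1.33 (SE 0.56, 95% interval -2.57 to -0.10, adjusted p 0.248 by edgeR). Single libraries moved this value both ways: it was -2.32 (adjusted p 0.0279) without HFS-fed Xbp1 LKO replicate 1 and -0.75 (adjusted p 0.614) without HFS-fed Xbp1 fl/fl replicate 1. Without the other HFS-fed libraries it lay between -1.67 and -0.97, with adjusted p of 0.174 to 0.558. The interaction was -1.72 (95% interval -3.53 to 0.10, adjusted p 0.818). With no filter on low counts, edgeR called Lpin1 with nearly the same values, -1.32 between genotypes on the HFS diet (adjusted p 1.32e-08) and -1.73 for the interaction (adjusted p 4.46e-06), and between diets in both genotypes. That setting called 1438 of 26016 genes between genotypes on the HFS diet. The estimate for Lpin1 hardly moved there, while the unadjusted p by edgeR went from 0.0370 to 1.37e-10. The libraries of a group differ as widely in both fits, and the cause of the smaller p was not tested. The counts do not separate the isoforms of Lpin1.

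Lpin2, the other lipin of liver, was at 528, 668 and 748 CPM in chow-fed Xbp1 fl/fl and at 548 and 648 CPM in chow-fed Xbp1 LKO libraries. In HFS-fed libraries it was at 798, 402 and 651 CPM in Xbp1 fl/fl and at 765, 444 and 396 CPM in Xbp1 LKO libraries. All 4 groups overlapped, and its 95% intervals in the 4 comparisons of 2 groups reached from -0.85 to 0.58 (log2). The same library, replicate 1, was the highest for both lipins in each HFS-fed group.

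**Figure D2:**
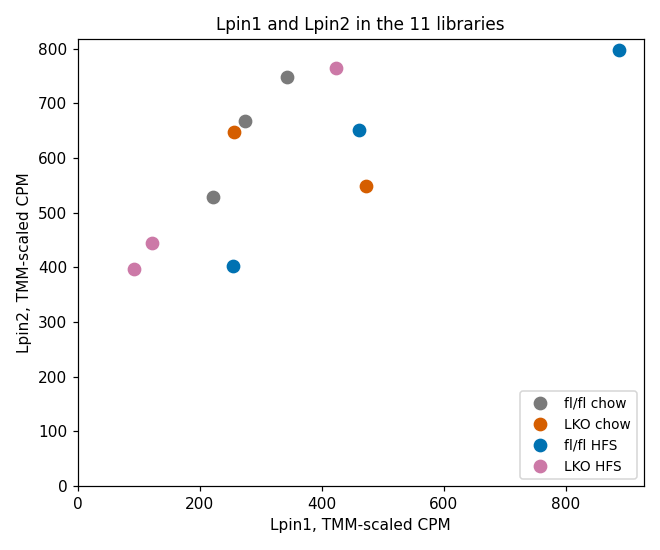
Each point is 1 of the 11 libraries, with Lpin1 on the x axis and Lpin2 on the y axis (both TMM-scaled CPM from 0), coloured by group. In each HFS-fed group the library with the most Lpin1 also had the most Lpin2, at 888 and 798 CPM in Xbp1 fl/fl and 423 and 765 CPM in Xbp1 LKO.

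Across the 11 libraries, log2 levels of Lpin1 and Lpin2 had a Pearson r of 0.770 (permutation p 0.00467, adjusted 0.0841 over 36 pairs of members) and a Spearman rho of 0.782 (permutation p 0.00617, adjusted 0.111). The Pearson r was 0.589 without the 2 libraries farthest from the median of Lpin1, and 0.875 for deviations from the group means. Agpat2 and Agpat3 had an r of 0.789 (permutation p 0.00441, adjusted 0.0841) and a rho of 0.836 (permutation p 0.00211, adjusted 0.0760), with an r of 0.611 without the 2 libraries farthest from the median of Agpat2 and 0.590 for deviations from the group means. No pair passed the adjustment by either measure, and all genes of a library share its depth, scaling and group. The permutation tests were two-sided with 100000 resamples. They shuffled all 11 libraries without regard to group, so differences between the groups enter these p-values.

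At the last step, Dgat1 was close to level in all groups. Dgat1 was at 25.9, 23.9 and 26.4 CPM in chow-fed Xbp1 fl/fl and at 29.0 and 23.3 CPM in chow-fed Xbp1 LKO libraries. The HFS-fed libraries had 27.7, 22.6 and 27.7 CPM in Xbp1 fl/fl and 25.6, 25.1 and 24.6 CPM in Xbp1 LKO libraries. The highest of the 11 libraries was 1.28 times the lowest, the smallest range among the members. Its 95% intervals over the 4 comparisons of 2 groups stayed between -0.33 and 0.32 (log2), which is between 0.794 and 1.25 times. These intervals are relative to the TMM scaling: with library totals, Dgat1 was 0.36 higher in Xbp1 LKO on chow and 0.21 higher on the HFS diet, near the shift of the median gene.

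Dgat2, which is no member but catalyses the same reaction, fell in Xbp1 LKO hepatocytes on both diets. The paper had already reported lower Dgat2 in Xbp1 LKO hepatocytes on both diets from its hepatocyte RNA-seq. Dgat2 was at 690, 814 and 645 CPM in chow-fed Xbp1 fl/fl and at 296 and 162 CPM in chow-fed Xbp1 LKO libraries. HFS-fed libraries had 871, 849 and 1080 CPM in Xbp1 fl/fl and 262, 196 and 300.2 CPM in Xbp1 LKO libraries. The log2 difference was -1.64 (95% interval -2.23 to -1.06, adjusted p 0.00725 by edgeR) on chow and -1.89 (95% interval -2.40 to -1.37, adjusted p 0.00254) on the HFS diet. On chow, without Xbp1 LKO replicate 2, it was -1.28 with an adjusted p of 0.0659. The intervals of Dgat1 and Dgat2 did not overlap on either diet. Per kilobase of merged exons, Dgat2 was 24.2 to 38.7 times Dgat1 in Xbp1 fl/fl libraries and 6.89 to 12.1 times in Xbp1 LKO libraries.

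**Figure D3:**
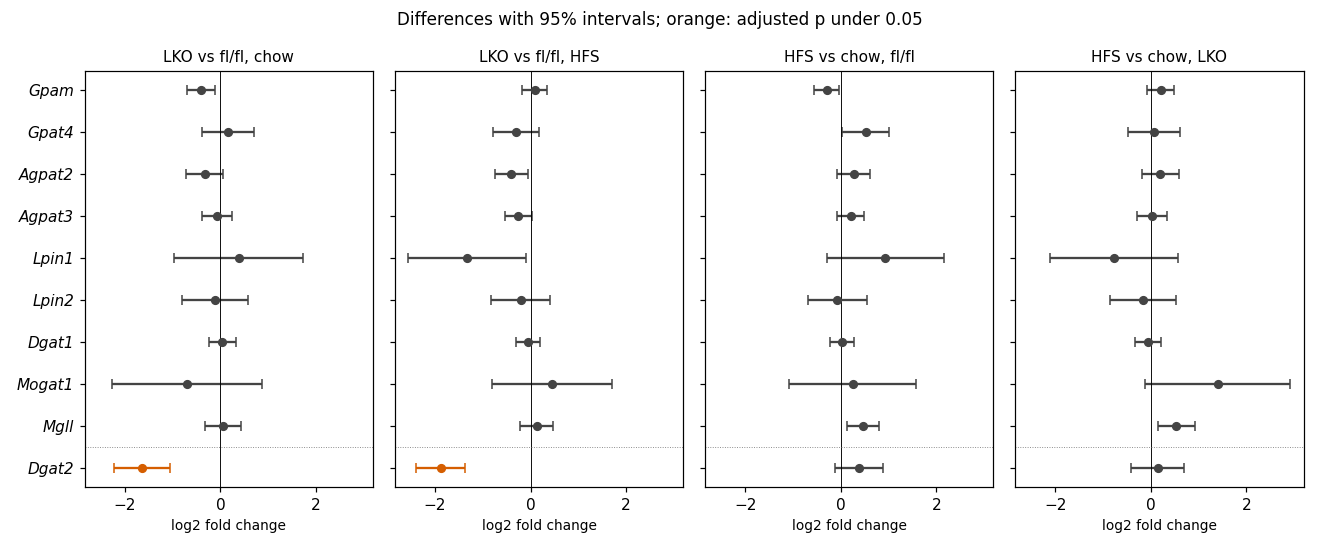
The 4 panels plot the log2 fold change on the x axis with its 95% interval for the 9 members and, under the dotted line, Dgat2; points are the edgeR estimates, orange where the adjusted p is under 0.05. Dgat2 is the one gene in orange, at -1.64 on chow and -1.89 on the HFS diet, and the intervals of Lpin1 and Mogat1 are the widest.

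Mogat1, the monoacylglycerol acyltransferase, was at the low end of detection, with 8 to 64 counts per library. It was at 0.496, 1.16 and 1.10 CPM in chow-fed Xbp1 fl/fl, 0.341 and 0.786 CPM in chow-fed Xbp1 LKO, 0.714, 0.458 and 2.11 CPM in HFS-fed Xbp1 fl/fl, and 1.02, 2.38 and 1.07 CPM in HFS-fed Xbp1 LKO libraries. In Xbp1 LKO the 2 diets did not overlap, and the log2 difference was 1.40 (SE 0.69, 95% interval -0.12 to 2.92, adjusted p 0.434 by edgeR). It was 0.89 without HFS-fed Xbp1 LKO replicate 2, 0.92 without chow-fed Xbp1 LKO replicate 1 and 2.12 without chow-fed Xbp1 LKO replicate 2.

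Mgll, which hydrolyses monoacylglycerol, was higher on the HFS diet in both genotypes without overlap, and passed the test in neither. In Xbp1 fl/fl it was at 204, 203 and 210 CPM on chow and at 242, 286 and 324 CPM on the HFS diet. In Xbp1 LKO it was at 243 and 186 CPM on chow and at 284, 279 and 367 CPM on the HFS diet. The log2 difference between diets was 0.47 (SE 0.16, 95% interval 0.13 to 0.81, adjusted p 0.359 by edgeR) in Xbp1 fl/fl and 0.53 (SE 0.18, 95% interval 0.14 to 0.92, adjusted p 0.273) in Xbp1 LKO. DESeq2 gave adjusted p of 0.165 and 0.115. The interaction was 0.06 (95% interval -0.45 to 0.57), and the genotypes overlapped on each diet.

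The antisense gene Gm26588 overlaps the start of Mgll (chr6:88724412-88725860). Over its whole length it held 3.23% to 6.38% as many counts as Mgll, at 7.34 to 14.0 CPM over the 11 libraries. Whether reads were counted by strand is not given in the sources used here. The summed level of 6 adipocyte markers was 0.405 to 1.55 CPM in chow-fed Xbp1 fl/fl and 1.91 to 19.3 CPM in HFS-fed Xbp1 fl/fl libraries, and 0.853 to 1.14 CPM and 1.27 to 8.03 CPM in chow-fed and HFS-fed Xbp1 LKO libraries. The HFS-fed library with the most Mgll had the highest adipocyte sum in Xbp1 fl/fl and the lowest in Xbp1 LKO. Of the 6 adipocyte markers only Lep was at 0 in every library. All the others were detected in HFS-fed Xbp1 fl/fl libraries, while Plin1 and Retn were also at 0 in HFS-fed Xbp1 LKO libraries. In Xbp1 LKO, other marker sums were also higher on the HFS diet without overlap: 24.6 to 36.4 against 58.6 to 105 CPM for macrophage, 26.3 to 32.4 against 68.8 to 105 CPM for endothelial, 13.3 to 15.6 against 36.5 to 75.6 CPM for stellate and 5.16 to 6.57 against 11.5 to 17.7 CPM for cholangiocyte markers. In Xbp1 fl/fl these 4 sums overlapped between diets. The part of these cell types in the diet difference of Mgll was not tested.

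Between diets, 4 of 9 members in Xbp1 fl/fl had groups that did not overlap, against 13.7% of all genes: Gpat4, Agpat3 and Mgll were higher on the HFS diet and Gpam was lower. In Xbp1 LKO it was 2 of 9 (Mgll and Mogat1, both higher), against 31.1% of all genes.

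The members differed widely in level. Per kilobase of merged exons, the median over the 11 libraries was 99.3 CPM for Agpat2, 53.0 for Lpin2, 49.2 for Gpat4, 47.9 for Mgll, 38.7 for Agpat3, 28.3 for Lpin1, 28.2 for Gpam, 8.38 for Dgat1 and 0.654 for Mogat1. Agpat2 was above Lpin2, Gpam above Dgat1, and Dgat1 above Mogat1 in 11 of 11 libraries, with ranges that did not overlap. The neighbours from Lpin2 down to Gpam overlapped in range, and the higher of 2 neighbours was ahead in 5 to 9 of the 11 libraries. With the longest transcript as the length, Gpat4 and Mgll changed places and the rest of the order held.

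**Figure D4:**
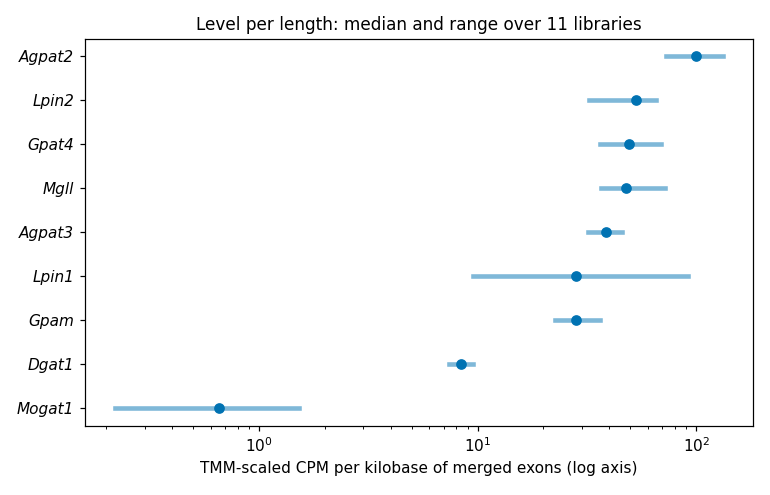
The x axis, on a log scale, is TMM-scaled CPM per kilobase of merged exons for the 9 genes on the y axis; points are medians and bars the range over the 11 libraries. Agpat2 has the highest median (99.3), 6 medians lie between 28.2 and 53.0, and Dgat1 (8.38) and Mogat1 (0.654) lie below.

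The members map to these places in GENCODE M21 (GRCm38), each as a protein-coding gene counted over its exons. Gpam is at chr19:55067268-55127238, Gpat4 at chr8:23171265-23208346, Agpat2 at chr2:26593057-26604417 and Agpat3 at chr10:78269178-78352489, all on the minus strand. Lpin1 (chr12:16535669-16610966) and Dgat1 (chr15:76502015-76511953) are on the minus strand too, while Lpin2 (chr17:71182560-71249817), Mogat1 (chr1:78510991-78538173) and Mgll (chr6:88724412-88828360) are on the plus strand. The end of Agpat2 overlaps the endothelial gene Egfl7 on the other strand, which held 782 counts in all libraries together against at least 3634 for Agpat2 in each.

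Around the members, 39 genes of 5 lists were examined, of which 35 had enough counts to be tested. On chow 0 rose and 4 fell in Xbp1 LKO, with a median log2 difference of -0.01. On the HFS diet 3 rose and 2 fell, with a median of 0.05, against the shares of 4.75% and 4.08% over all genes given above. Between diets 1 fell in Xbp1 fl/fl, none passed in Xbp1 LKO, and none passed for the interaction. Genes that passed between genotypes on 1 diet alone were thus not called as different between the diets.

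Among 8 paralogues of the same steps, 6 were tested and Dgat2 was the one that passed, on both diets. Gpat3, another acyltransferase of the first step, had log2 differences between genotypes of 0.77 on chow and 1.05 on the HFS diet (adjusted p 0.304 and 0.135 by edgeR). Neither passed, though Gpat3 was higher in Xbp1 LKO without overlap on both diets. Mogat2, of the monoacylglycerol step, had differences of 0.96 and 1.18 (adjusted p 0.478 and 0.322), which did not pass either. It was near the low end of detection, at 3 to 35 counts per library, and its genotypes overlapped on the HFS diet but not on chow.

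Of 10 genes that supply glycerol 3-phosphate and acyl-CoA, 8 were tested. On chow 2 acyl-CoA synthetases fell in Xbp1 LKO, Acsl5 and Acsl3. Acsl5 was at 466, 451 and 578 CPM in chow-fed Xbp1 fl/fl and at 297 and 181 CPM in chow-fed Xbp1 LKO libraries, a log2 difference of -1.06 (adjusted p 0.0250 by edgeR). Acsl3 was at 31.6, 27.0 and 30.9 CPM against 13.2 and 16.5 CPM, a difference of -1.01 (adjusted p 0.00800). Acsl3 also fell from chow to the HFS diet in Xbp1 fl/fl, where it was at 15.2, 15.6 and 18.2 CPM on the HFS diet, a difference of -0.87 (adjusted p 0.0351). The call of Acsl5 was lost in a fit of the chow groups alone (adjusted p 0.105), without chow-fed Xbp1 fl/fl replicate 3 (-0.94, adjusted p 0.0553) and without chow-fed Xbp1 LKO replicate 2 (-0.75, adjusted p 0.238). The diet call of Acsl3 was lost without any 1 of the 6 Xbp1 fl/fl libraries or without HFS-fed Xbp1 LKO replicate 3, at -0.96 to -0.82 and adjusted p of 0.0534 to 0.144. On the HFS diet, Acsl5 was also lower in Xbp1 LKO without overlap, by -0.44 (adjusted p 0.284 by edgeR). The difference of Acsl3 there was -0.16 (adjusted p 0.658 by edgeR), and its groups overlapped.

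On the HFS diet, 2 genes of the supply of glycerol 3-phosphate rose in Xbp1 LKO. Gpd1, which makes glycerol 3-phosphate from a glycolytic intermediate, was at 341, 448 and 452 CPM in Xbp1 fl/fl and at 625, 869 and 845 CPM in Xbp1 LKO libraries, a log2 difference of 0.91 (adjusted p 0.0141 by edgeR). Gk, which phosphorylates glycerol, was at 111, 120.4 and 120 CPM against 167, 172 and 154 CPM, a difference of 0.49 (adjusted p 0.0448). On chow, Gpd1 was also higher in Xbp1 LKO without overlap, by 0.33 (adjusted p 0.377 by edgeR). The difference of Gk on chow was -0.03 (adjusted p 0.936 by edgeR), and its groups overlapped. The call of Gpd1 was lost without HFS-fed Xbp1 fl/fl replicate 1 (0.79), or HFS-fed Xbp1 LKO replicate 2 (0.83) or 3 (0.85), with adjusted p of 0.0520 to 0.0737. That of Gk was lost without any 1 of the 6 HFS-fed libraries, chow-fed Xbp1 fl/fl replicate 2 or chow-fed Xbp1 LKO replicate 1, at 0.45 to 0.53 and adjusted p of 0.0515 to 0.165.

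All 10 genes of triglyceride and monoglyceride hydrolysis were tested, of which Ces1d fell in Xbp1 LKO on chow and Lipc on the HFS diet. Ces1d, a carboxylesterase that hydrolyses triglyceride in the endoplasmic reticulum, was at 564, 1302 and 850.2 CPM in chow-fed Xbp1 fl/fl and at 160 and 27.2 CPM in chow-fed Xbp1 LKO libraries, a log2 difference of -3.28 (adjusted p 0.0175 by edgeR). It was -2.50 (adjusted p 0.0676) without chow-fed Xbp1 LKO replicate 2, -5.06 (adjusted p 0.00288) without replicate 1, and -3.27 (adjusted p 0.0859) in a fit of the chow groups alone. Its difference on the HFS diet was -2.10 (adjusted p 0.0511), and whether the diets differ in this was tested by the interaction, which no gene of the lists passed. Ces1d has near-identical neighbours, so its reads may be shared with them. Lipc, the hepatic lipase that is secreted, was at 284, 230 and 287 CPM in HFS-fed Xbp1 fl/fl and at 158, 144 and 152 CPM in HFS-fed Xbp1 LKO libraries, a difference of -0.82 (adjusted p 0.0256). That call was lost without HFS-fed Xbp1 fl/fl replicate 1 or 3 or HFS-fed Xbp1 LKO replicate 2 or 3, at -0.82 to -0.76 and adjusted p of 0.0803 to 0.115. On chow, Lipc was also lower in Xbp1 LKO without overlap, by -0.62 (adjusted p 0.0999 by edgeR). Pnpla2, the main intracellular triglyceride lipase, had differences of 0.38 on chow and -0.14 on the HFS diet (adjusted p 0.218 and 0.707).

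The 5 genes of other phosphatidate phosphatases (Plpp1, Plpp2, Plpp3) and of the phosphatase that acts on lipins (Ctdnep1, Cnep1r1) were tested, and none passed in any comparison. Of 6 transcription factors known to act on members, 1 passed: Pparg, which drives lipid storage genes, Mogat1 among them, rose in Xbp1 LKO on the HFS diet. It was at 10.5, 7.69 and 12.6 CPM in HFS-fed Xbp1 fl/fl and at 17.4, 35.9 and 25.2 CPM in HFS-fed Xbp1 LKO libraries, a log2 difference of 1.35 (adjusted p 0.0138 by edgeR). The call was lost without HFS-fed Xbp1 fl/fl replicate 1 (1.37) or 2 (1.18) or HFS-fed Xbp1 LKO replicate 2 (1.06), with adjusted p of 0.0534 to 0.0541. On chow, Pparg was also higher in Xbp1 LKO without overlap, by 0.68 (adjusted p 0.198 by edgeR). Mogat1 had a genotype difference of 0.45 on the HFS diet (95% interval -0.81 to 1.71, adjusted p 0.766 by edgeR). Srebf1, which encodes the regulator of lipogenic genes SREBP1, Gpam among them, had differences of -1.31 on chow and -0.99 on the HFS diet (adjusted p 0.152 and 0.239). Between diets in Xbp1 fl/fl, Srebf1 was 1.36 higher on the HFS diet (adjusted p 0.309), while Gpam was at -0.29 (adjusted p 0.480). Whether these factors act on the members here was not tested.

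**Figure D5:**
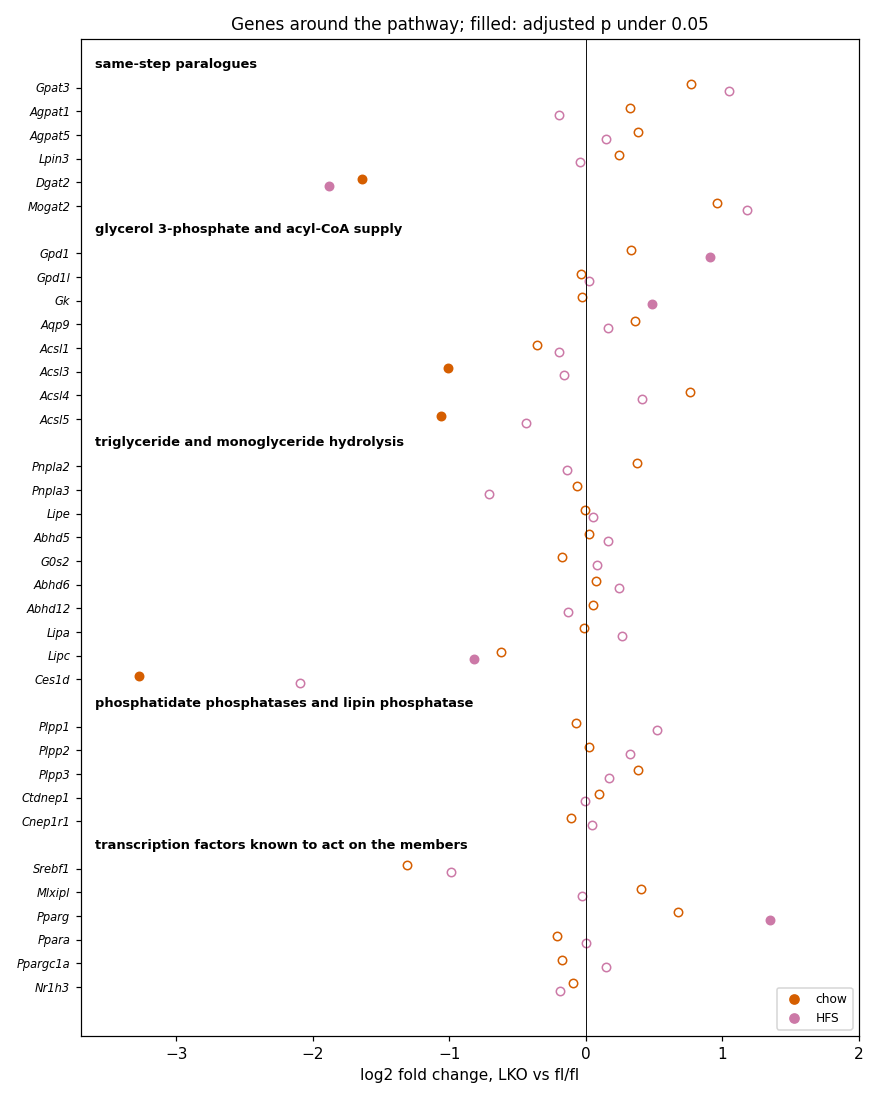
The 35 tested genes of the 5 lists are on the y axis, and the x axis is the log2 difference of Xbp1 LKO from Xbp1 fl/fl on chow (orange) and on the HFS diet (pink), filled where the adjusted p is under 0.05. Dgat2 is filled on both diets; Acsl3, Acsl5 and Ces1d are filled on chow, and Gpd1, Gk, Lipc and Pparg on the HFS diet.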

How the data were processed

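RNA from Percoll-purified hepatocytes was sequenced as single-end 50 bp reads. The authors deposited a whole-number count per Ensembl gene and library, not normalized. Their methods name kallisto and tximport, while the submitters' processing notes name cutadapt 1.13, STAR, HTSeq 0.6.1p1, DESeq2 and mm10, so which made the counts is not settled. The methods name a stranded mRNA kit and the labels a total RNA kit. Symbols and positions came from GENCODE M21, which held 54165 of 54232 identifiers.

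TMM factors, the filter on low counts (filterByExpr, minimum count 10, 13303 genes kept) and the quasi-likelihood test came from edgeR 4.0.16 (R 4.3.3). The model had the 4 groups as its terms and used all 11 libraries, with Benjamini-Hochberg adjustment over all genes kept. Intervals are 95% from the fit's SE. Correlations were taken on log2 CPM (prior count 2). The code was tested on simulated data. Alternatives were DESeq2 1.42.0, RLE size factors, library totals, no filter, at least 1 CPM in 2 libraries, only the groups compared, replicate blocks and each library left out. The variance between replicate pairs was 27.9 to 102 times the variance of counting, so counting intervals are not given.

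Folds and tests are printed for members whose groups did not overlap, and for genes of the lists past the threshold (at most 3 per list and comparison by p, with a mean of at least 1 CPM). Tests of Lpin1, Lpin2, Dgat1, Pnpla2, Gpat3, Mogat2 and Srebf1, and overlapping or interaction values beside these, were added after values were seen. So were the values of list genes on the diet where they did not pass. Members and lists were chosen with earlier results of these data known.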

Additional observations from a re-analysis of the deposited data

How the results depend on the processing

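The count of members called was 0 of 9 in each of the 5 comparisons. Of 19 alternatives it changed under 3: DESeq2 called 1 member for genotype on chow (Gpam), no filter on low counts called 1 (Lpin1) in each of the other 4 comparisons, and leaving out each library in turn gave 0 to 1 for genotype on the HFS diet (Lpin1, without HFS-fed Xbp1 LKO replicate 1) and 0 in the other comparisons. Without the filter, Lpin1 had a log2 difference of -1.32 between genotypes on the HFS diet with an adjusted p of 1.32e-08. With the filter these values were -1.33 and 0.248, so the p moved and the estimate hardly did. The cause was not tested. Leaving out a chow-fed Xbp1 LKO library left 1, which was assumed to vary like the other groups. The difference of Agpat3 between genotypes on the HFS diet changed sign with library totals (0.0045, adjusted p 0.984). That of Gk was 0.75 with library totals, where the median gene shifted by 0.27. Over all genes, the number called for genotype on chow, genotype on the HFS diet, diet in Xbp1 fl/fl, diet in Xbp1 LKO and the interaction was 632, 543, 57, 8 and 0. It was 1115, 987, 175, 210 and 31 with DESeq2 and 1507, 1438, 499, 722 and 269 without the filter. Both of these settings fitted 26016 genes, against 13303 in the main fit, so the counts are not of the same set. In fits of only the groups compared, the first 4 counts were 233, 809, 38 and 0. Library totals called 3000 for genotype on chow (2685 higher and 315 lower in Xbp1 LKO, against 230 and 402) and 1483 on the HFS diet (1288 and 195, against 256 and 287). With 1 library left out the counts were 69 to 762, 184 to 662, 6 to 59, 0 to 36 and 0, with 69 for genotype on chow without chow-fed Xbp1 LKO replicate 2. Over the 9 members and all comparisons, library totals also turned the sign of Agpat2 (0.0012), Agpat3 (0.26) and Lpin2 (0.22) on chow, of Dgat1 (0.21) and Lpin2 (0.04) on the HFS diet, and of Agpat3 between diets in Xbp1 LKO (-0.03), none of them called. For the 20 pairs of gene and comparison tried under every alternative (members without overlap, Lpin1 on the HFS diet and genes of the lists that passed), 342 of 380 values kept their direction and side of the threshold, 34 lost a call, 3 gained one and 1, that of Agpat3, changed sign.

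Same-numbered libraries did not deviate together: the correlation of their deviations averaged -0.01 over 15 pairs, from -0.20 to 0.23. With the replicate number as a block, 0 members were called in every comparison, 455, 412, 38, 19 and 0 genes were called in the 5 comparisons, and the calls of Gk (adjusted p 0.0700) and of Acsl3 between diets (adjusted p 0.0645) were lost. The numbers in file names, which differ for 1 chow-fed Xbp1 LKO library, also gave 0 members. Depth was lowest for Mogat1, at 8 to 64 counts per library, while every other member had at least 414 counts in each.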
